A study of Mus musculus with 12 samples.

Results

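Peroxisome biogenesis and oxidase genes are the 42 protein-coding genes of the deposited count table that carry the name of a peroxin (Pex), a peroxisomal transporter or one of a fixed set of peroxisomal enzymes. They were taken by gene name from 54532 genes, whatever their values, but the list was chosen with earlier results of these data known. Of the 42, 38 had enough counts to be tested. Counts over the set cover all of these, and single values are given for 33 of the tested members. The libraries were made from total RNA of dorsal root ganglia (DRG), the clusters of sensory neurons beside the spinal cord, of C57BL/6 mice. The 6 control libraries came from mice of genotype CDH5-Cre, a recombinase driven by the promoter of the endothelial gene Cdh5. The 6 DAAO libraries came from mice of genotype DAAO-TGCdh5, a transgene for D-amino acid oxidase. All 12 samples were from mice given D-Alanine, the substrate of that enzyme. The genotype label of the DAAO group does not name Cre, which only the sample titles carry, and no label gives the age, the dose or the number of animals behind a library. The p-values therefore measure only the spread between these libraries.

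Peroxisomes are membrane-bound organelles that shorten very long and branched fatty acids, begin the synthesis of ether lipids such as plasmalogens, and hold oxidases that release hydrogen peroxide together with catalase, which removes it. D-amino acid oxidase is itself a peroxisomal enzyme in mammals. In the nervous system the pathway is known from inherited disorders of myelin and peripheral nerve, among them Refsum disease (PHYH). The comparison asked whether transcripts of this organelle differed between ganglia with and without the oxidase transgene.

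Most enzymes of the peroxisome interior are drawn in by Pex5, the receptor that reads a signal of 3 amino acids at the very end of a protein, called PTS1. The last 30 coding bases of 5 members are shown to make that shared address visible, with the last 3 codons before the stop codon in capitals (5′ to 3′ on the coding strand, GENCODE vM21 transcripts, build GRCm38). The first 4 end in codons for a canonical PTS1, and catalase ends in a variant outside the pattern searched.
Ech1: acaaaaagcatcaccttcTCCAAGCTCtga
Scp2: cagcttcagccgggcaaaGCTAAGCTGtga
Ddo: aggacccctgcttccttgTCGAAGCTGtag
Dao: ttgtccaggttgcctcccTCCCACCTCtga
Cat: atggctgcgaagggaaaaGCTAACCTGtaa
These stretches lie in the last coding exon of each gene, at chr7:28832079-28832108 on the plus strand for Ech1 and chr4:108044750-108044779 on the minus strand for Scp2. Those of Ddo and Dao lie at chr10:40648012-40648041 and chr5:114024877-114024906 on the plus strand, and that of Cat at chr2:103454756-103454785 on the minus strand. Codons for a PTS1 (S, A or C, then K, R or H, then L or M) closed the longest coding sequence of 11 of the 42 members, or 26.2%, against 108 of 21523 protein-coding genes, or 0.502%. The members were chosen for peroxisomal function, so that share is a description of the list.

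No peroxisome gene passed the test between DAAO and control ganglia. Of the 38 members tested with edgeR's quasi-likelihood test, 0 were higher and 0 were lower in DAAO at an adjusted p under 0.05, where 0.753% of all 17002 genes tested passed, 0.506% higher and 0.247% lower. An unadjusted p under 0.05 was reached by 2 of 38 members, Abcd2 and Pex11a, both lower, or 5.26%, against 10.3% of all genes, of which 5.44% were higher and 4.87% lower. The count was also 0 with DESeq2, limma-voom and limma-voom with sample weights, where 2, 3 and 5 members had an unadjusted p under 0.05 and so did 11.5%, 11.3% and 17.0% of all genes. The groups overlapped in all 38 members, whereas they did not overlap in 1.45% of all genes tested, 0.918% with DAAO above and 0.529% with DAAO below. The log2 fold change (DAAO minus control) was positive in 16 members and negative in 22, with a median of -0.058 beside 0.0021 over all genes tested. Without controls 2 and 6, the libraries with the highest mitochondrial share, Abcd2 alone passed as lower (-0.59, adjusted p = 0.0303), and the median was 0.024. That is 1 of 38 members, or 2.63%, where 3.63% of all genes tested in that fit passed in either direction. Controls 2 and 6 were also the 2 lowest controls for Abcd2, at 19.6 and 14.4 CPM, where the other controls had 23.1 to 29.2. Leaving them out therefore raises its control mean.

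The intervals around the fold changes were narrow for most members. The 95% interval lay within a 1.5-fold change in either direction for 28 of 38 members, or 73.7%, against 43.5% of all genes tested. Among genes with a mean of at least 5 CPM (the counts of a gene as a share of the library, with TMM-scaled totals) it did so for 28 of 34 members, or 82.4%, against 60.2%. A 2-fold change lay outside the interval in all 34 of these members and in 90.3% of all genes at that level. Wider intervals were found for 10 members, among them Abcd2, Pex11a, Pex11g, Pex14, Paox, Pipox, Dao and Ddo.

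**Figure D1:**
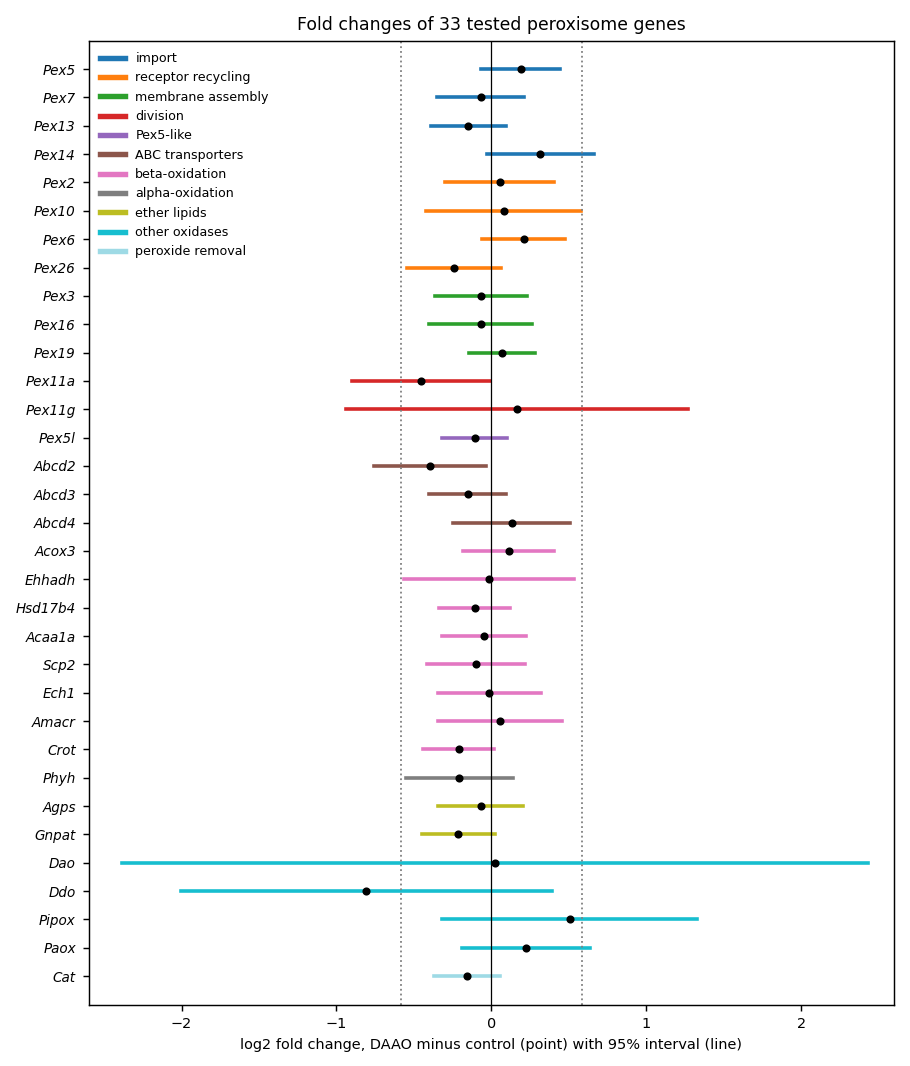
Log2 fold change (DAAO minus control, n = 6 libraries a group) of 33 tested members, as a point with its 95% interval, coloured by role; dotted lines mark a 1.5-fold change. The points of Ddo and Pipox alone lie more than 0.5 from 0 on the log2 scale, and the widest intervals are those of Dao, Ddo and Pex11g.

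The depth behind these values was 13227518 to 23884927 counts a library, and the members together took 0.162% to 0.190% of them, with 0.174% the highest share in DAAO. Neuronal RNA was present throughout, since all 12 pan-neuronal markers were detected and their summed level ranged from 12960 to 19670 CPM in controls and from 10070 to 17080 in DAAO. Control 2 stood apart from the other 11 libraries. Its summed level of 10 myelinating Schwann cell markers was 25510 CPM, where the others had 6781 to 11090. Its 8 oligodendrocyte markers summed to 2740 CPM, where the others had 183 to 999. Mag is on both lists, so these sums are not separate, and Sox10 on the second list had 128 ± 22.9 CPM in controls. Control 4 held the highest sum of 7 skeletal muscle markers, at 2318 CPM, followed by control 5 at 964, where the others had 3.76 to 484. All 10 myelinating Schwann cell markers had a negative log2 fold change (median -0.49). Of 9 macrophage markers 8 had a positive and 1 a negative value (median 0.92). By edgeR's test 0 passed on either list, and an unadjusted p under 0.05 was reached by 60% and 55.6%, against 10.3% of all genes. The part of these cell types in the members' values was not tested. Whole ganglia cannot separate fewer cells of a type from less RNA in each cell.

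Per kilobase of gene length, catalase was the most abundant member, at 65.1 ± 6.08 CPM per kilobase over the 12 libraries (mean ± SD). It was followed by Phyh, Ech1 and Scp2, which stood at 37.9 ± 9.62, 37.8 ± 7.88 and 37.6 ± 7.68 and did not differ beyond their spread. Pex19, a chaperone that carries new membrane proteins to the organelle, had 26.1 ± 2.17. The import receptor Pex5 had 9.14 ± 1.153, and its docking partners Pex13 and Pex14 had 7.81 ± 0.847 and 5.51 ± 1.150. In controls alone Pex5 and Pex13 stood at 8.54 ± 0.936 and 8.22 ± 0.816 and did not differ beyond their spread. The lowest tested members were Pex11g, Dao and Ddo, at 0.432 ± 0.209, 0.371 ± 0.512 and 0.351 ± 0.241, whose spreads overlapped.

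**Figure D2:**
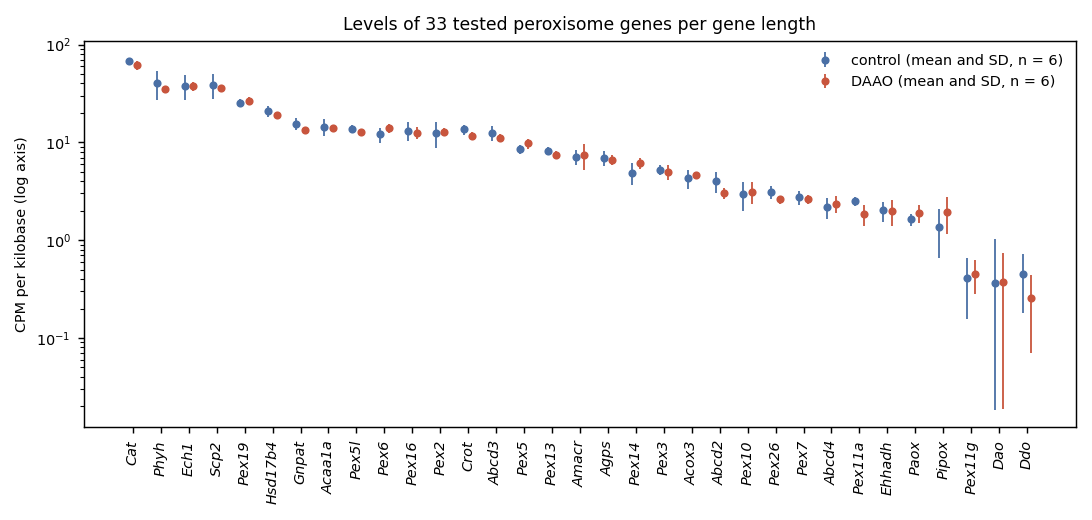
CPM per kilobase of gene length (log axis) of 33 tested members, ordered by their mean over the 12 libraries, with mean and SD of the 6 libraries of each group. The levels run from 65.1 for Cat down to 0.351 for Ddo, and the lower bars of Dao are drawn short because they would reach 0 or nearly so.

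Import of matrix proteins depends on Pex5, on Pex7, the receptor of a second signal, and on the docking proteins Pex13 and Pex14. Pex5 (ENSMUSG00000005069; chromosome 6, 124396816 to 124415067) had 32.9, 31.6, 27.9, 38.2, 35.2 and 36.3 CPM in controls 1 to 6 and 37.3, 35.2, 32.0, 43.4, 40.6 and 41.8 in DAAO 1 to 6. The highest 3 values were those of DAAO 4, 5 and 6, and the ranges overlapped. Its log2 fold change was 0.19 ± 0.12 (SE, adjusted p = 0.647).
Pex14 had 33.8, 25.5, 32.6, 33.0, 18.8 and 41.0 CPM in controls and 37.1, 39.8, 32.4, 37.0, 46.5 and 36.9 in DAAO. Control 5 was the lowest and DAAO 5 the highest. The log2 fold change of 0.32 ± 0.16 (SE, adjusted p = 0.539) rests on exons of which 28.3% are shared with an antisense transcript, Gm17029, and was 0.19 without control 5 and 0.50 with a term for pan-neuronal markers. Pex7 and Pex13 had log2 fold changes of -0.070 and -0.15 (adjusted p = 0.932 and 0.729).

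Pex2 and Pex10 belong to the ubiquitin ligase that marks Pex5 for recycling, and the ATPase Pex6, anchored by Pex26, helps to pull it out of the membrane. None of these 4 passed, with log2 fold changes from -0.24 (Pex26, adjusted p = 0.613) to 0.21 (Pex6, adjusted p = 0.631). Pex6 had 37.7, 51.1, 53.7, 42.7, 36.0 and 53.0 CPM in controls and 52.1, 48.3, 55.2, 46.3, 54.0 and 60.6 in DAAO. The 3 highest values were in DAAO and the 2 lowest in controls, and control 3 lay above 3 of the 6 DAAO libraries. Pex2 was the 1 tested member of which all 6 DAAO libraries lay above the control median. Its mean moved only from 28.2 ± 8.32 to 29.3 ± 2.88 CPM, and control 2 was the highest library, at 44.0. For 5 tested members, Abcd2, Gnpat, Pex7, Pex11a and Pex26, all 6 DAAO libraries lay below the control median. Neither count was made over all genes tested, so neither can be read as particular to these members.
Pex3, Pex16 and Pex19 insert membrane proteins and are needed for the organelle to form. Their log2 fold changes were -0.069, -0.069 and 0.068 (adjusted p = 0.939, 0.949 and 0.903), and the 95% interval of Pex19 ran from -0.14 to 0.28.

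The Pex11 proteins elongate and divide peroxisomes, and Pex11a is the inducible form, a known PPAR-alpha target in liver. Pex11a (ENSMUSG00000030545; chromosome 7, 79735957 to 79743131) had 8.37, 7.61, 7.44, 6.88, 8.18 and 9.45 CPM in controls and 6.60, 4.36, 6.73, 5.34, 4.33 and 7.67 in DAAO. DAAO 6 was the only DAAO library above any control, and all 6 lay below the control median. Its log2 fold change of -0.45 ± 0.21 (SE, unadjusted p = 0.0464) did not pass (adjusted p = 0.475). Pex11g, with 1.39 ± 0.856 CPM in controls and 1.55 ± 0.598 in DAAO, had 0.16 (adjusted p = 0.965), and 41.1% of its exon bases are shared with another annotated gene.

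Pex5l carries a peroxin's name but is a neuronal relative of Pex5 that binds HCN pacemaker channels. It was among the abundant members, with 130, 141, 116, 113, 114 and 114 CPM in controls and 119, 118, 105, 117, 116 and 100.1 in DAAO. The lowest values were those of DAAO 3 and 6, and the highest was that of control 2. The log2 fold change was -0.11 ± 0.10 (SE, adjusted p = 0.805), and its 95% interval ran from -0.32 to 0.10. Of the 12 pan-neuronal markers 10 had a negative log2 fold change and 1 passed as lower, and of 6 proprioceptor markers 4 passed as lower (median -1.18), where 0.247% of all genes did. Their part in the value of Pex5l was not tested.

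**Figure D3:**
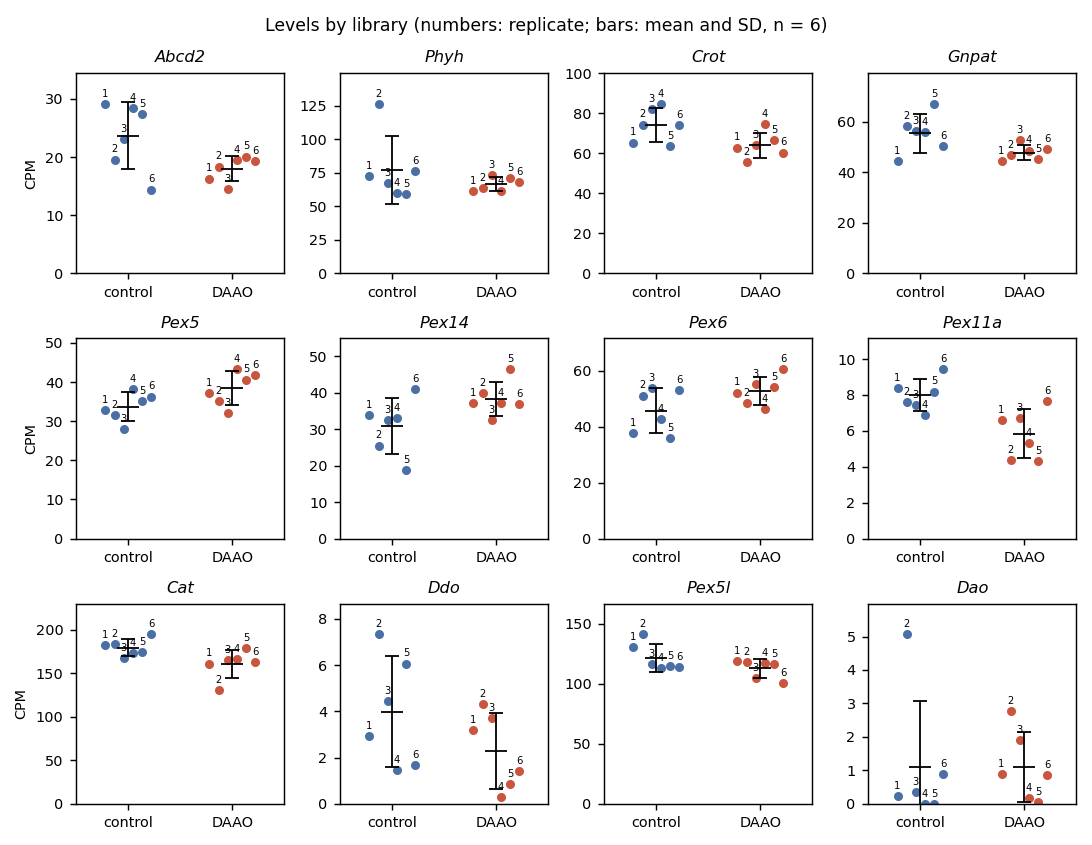
CPM (linear axes from 0) of 12 members in each library, numbered by replicate, with mean and SD of 6 libraries a group. The groups overlap in every panel. All 6 DAAO libraries lie below the control median for Abcd2, Gnpat and Pex11a, and control 2 is the highest for Dao, Ddo, Phyh and Pex5l.

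The ABCD proteins are transporters, of which Abcd2 brings very long-chain fatty acids into the organelle. Abcd2 (ENSMUSG00000055782; chromosome 15, 91145871 to 91191799) had 29.2, 19.6, 23.1, 28.5, 27.4 and 14.4 CPM in controls and 16.3, 18.4, 14.5, 19.5, 20.1 and 19.3 in DAAO. All DAAO libraries lay below the control median, but control 6 was the lowest library of all. On the log2 scale the difference was -0.40 ± 0.17 (SE, unadjusted p = 0.0344, adjusted p = 0.439), the smallest p of the 38 members, and it lay between -0.51 and -0.34 with 1 library left out.
Abcd3, the most abundant of the family, had -0.15 (adjusted p = 0.731). Abcd4, which is known to act in lysosomal export of vitamin B12 in spite of its family name, had 0.13 (adjusted p = 0.894).

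Peroxisomal beta-oxidation begins with the acyl-CoA oxidases, whose first step yields hydrogen peroxide. Acox3, a branched-chain oxidase, had 0.11 (adjusted p = 0.877).
None of the later enzymes named here passed either. Hsd17b4 and Ehhadh, the multifunctional enzymes, had -0.11 and -0.017, and the thiolase Acaa1a had -0.048 (adjusted p = 0.824, 0.996 and 0.958). Scp2, a thiolase and sterol carrier, had -0.099, Ech1, a dienoyl-CoA isomerase, had -0.014 and the racemase Amacr had 0.054 (adjusted p = 0.905, 0.994 and 0.969). Acaa1a has a near-identical copy, Acaa1b, between which reads could be split.
Crot, which hands shortened chains on to carnitine, had the smallest p of this role. It had 65.4, 74.4, 82.1, 84.8, 63.8 and 74.2 CPM in controls and 62.9, 55.5, 64.3, 74.5, 66.5 and 60.4 in DAAO. DAAO 4 alone lay above the control median. On the log2 scale the difference was -0.21 ± 0.11 (SE, adjusted p = 0.537).

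Phyh, the alpha-oxidation enzyme that is lost in Refsum disease, had 72.8, 127, 67.2, 59.8, 58.9 and 76.2 CPM in controls and 61.7, 63.8, 73.5, 61.7, 71.0 and 68.2 in DAAO. Control 2 was the single high library. The log2 fold change of -0.21 (adjusted p = 0.747) became -0.0017 without it.
Gnpat and Agps carry out the first 2 steps of ether lipid synthesis inside the organelle. Gnpat had 44.4, 58.3, 56.2, 55.9, 67.1 and 50.4 CPM in controls and 44.4, 46.7, 52.7, 48.5, 45.3 and 49.2 in DAAO. All DAAO libraries lay below the control median, and control 1 lay within rounding of the lowest of them. Their log2 fold changes were -0.21 ± 0.11 for Gnpat and -0.071 ± 0.13 for Agps (SE, adjusted p = 0.545 and 0.929).

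Catalase, which breaks down the hydrogen peroxide that these oxidases release (ENSMUSG00000027187; chromosome 2, 103453849 to 103485160), had 182, 183, 168, 173, 174 and 195 CPM in controls and 161, 131, 166, 166, 179 and 163 in DAAO. DAAO 5 was the only DAAO library above the control median, and DAAO 2 was the lowest of all. DAAO minus control was, on the log2 scale, -0.16 ± 0.10 (SE, adjusted p = 0.654). Its 95% interval, from -0.37 to 0.058, held neither a 1.5-fold fall nor a rise of that size.

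Dao is the endogenous mouse gene of the transgene's enzyme (ENSMUSG00000042096; chromosome 5, 114003703 to 114025682), and no source used here says whether transgene reads were counted under it. It was near the limit of detection, with 4, 94, 7, 0, 0 and 11 counts in controls 1 to 6 and 14, 54, 34, 3, 1 and 14 in DAAO 1 to 6. In CPM these were 0.222, 5.07, 0.350, 0, 0 and 0.881 in controls and 0.889, 2.77, 1.91, 0.163, 0.0421 and 0.852 in DAAO. The 0 counts of controls 4 and 5 allow up to 0.140 and 0.152 CPM (3 counts each, counting error only). The high libraries were control 2, DAAO 2 and DAAO 3.
For Dao the log2 fold change was 0.023 ± 1.13 (SE, adjusted p = 0.999), with a 95% interval from -2.38 to 2.43, and it was 1.98 without control 2 (adjusted p = 0.466). Astrocyte markers, all 5 of them detected, summed to 417, 1461, 393, 57.2, 232 and 74.5 CPM in controls 1 to 6 and to 545, 896, 453, 132, 167 and 332 in DAAO 1 to 6. Control 2 and DAAO 2 held the highest astrocyte sums and the highest Dao levels. Among the others the order differed, as control 6 (74.5 CPM of these markers) had more Dao than controls 1 and 5 (417 and 232). In the central nervous system Dao is known from astrocytes of the hindbrain and spinal cord, and the part of this list in the Dao values was not tested.

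**Figure D4:**
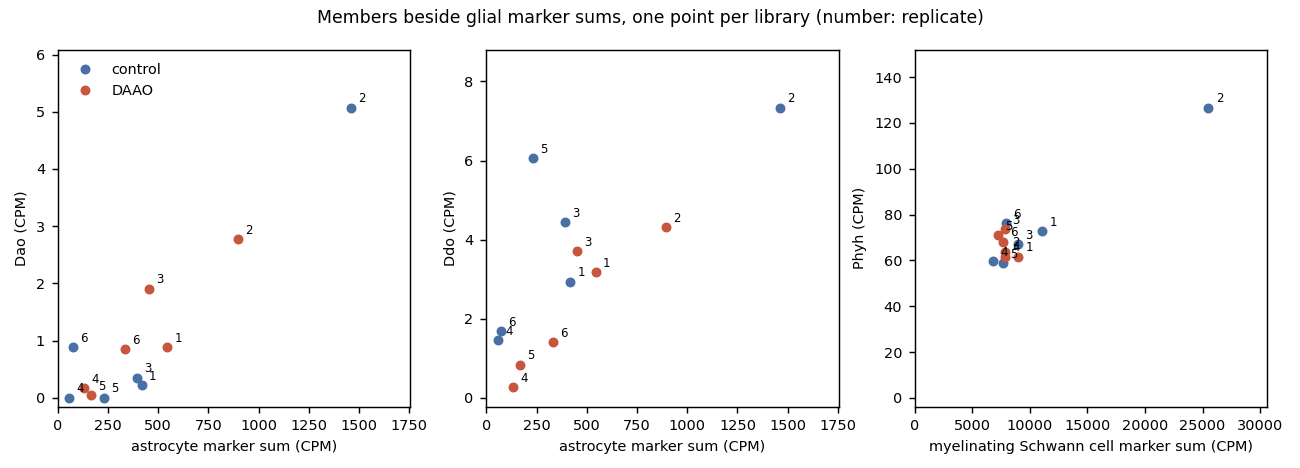
CPM of Dao, Ddo and Phyh in each library (numbered by replicate) against the summed CPM of astrocyte or myelinating Schwann cell markers. Control 2 is highest on both axes in all 3 panels; DAAO 2 is next for Dao, and the other 11 libraries form 1 group for Phyh.

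The remaining oxidases were also sparse. Ddo, the oxidase of D-aspartate, had 2.94, 7.34, 4.44, 1.45, 6.06 and 1.68 CPM in controls and 3.17, 4.31, 3.70, 0.272, 0.841 and 1.40 in DAAO. Control 2 was the highest and DAAO 4 the lowest. The log2 fold change of -0.81 ± 0.57 (SE, adjusted p = 0.694) had a 95% interval from -2.002 to 0.39. With a term for the level of pan-neuronal markers it was -2.02 (adjusted p = 0.0534), and with 1 library left out it ran from -1.08 to -0.54.
Pipox, the pipecolate and sarcosine oxidase, and Paox, the polyamine oxidase, had log2 fold changes of 0.51 ± 0.39 and 0.22 ± 0.19 (SE, adjusted p = 0.738 and 0.787). That of Pipox was 0.32 without control 3, 0.78 without control 2, 1.003 without controls 2 and 6 and 1.10 with sample weights (adjusted p = 0.873, 0.383, 0.177 and 0.215). The other 4 members were too low to test. Acaa1b, Acox2, Hao1 and Hao2, genes best known from liver and kidney, had 27, 11, 20 and 21 counts over the 6 control libraries and 52, 16, 16 and 2 over the 6 DAAO libraries. They were detected in 8, 5, 5 and 4 of the 12 libraries. Acaa1b had 13, 5 and 9 counts in controls 3, 4 and 5 and 23, 1, 9, 18 and 1 in DAAO 1, 3, 4, 5 and 6. Acox2 had 1 and 10 counts in controls 4 and 6 and 4, 8 and 4 in DAAO 2, 3 and 6. Hao1 had 12 and 8 counts in controls 4 and 6 and 8, 4 and 4 in DAAO 1, 4 and 6. Hao2 had 1 and 20 counts in controls 4 and 5 and 1 each in DAAO 4 and 6, so 1 library held nearly all of them.

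Across all members the libraries differed from each other more among the controls. The coefficient of variation was larger in controls than in DAAO for 29 of 38 members, with medians of 18.2% and 11.7%, and for 28 of 38 without control 2. Control 2 held the highest level of 10 members, more than any other library, among them Phyh, Ech1, Scp2, Hsd17b4, Pex2, Dao and Ddo. Its level was 1.89 times the median of the other 11 libraries for Phyh, 1.66 times for Scp2, 1.62 times for Pex2 and 1.61 times for Ech1. Without control 2 the log2 fold changes were 0.069 for Scp2, 0.15 for Ech1, 0.23 for Pex2 and -0.54 for Ddo (adjusted p = 0.836, 0.604, 0.471 and 0.750). Control 6 held the highest level of 7 members. The part of the glial marker levels of control 2 in these values was not tested. The counts of larger variation and of highest library were not made over all genes tested. They cannot be read as particular to these members.

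**Figure D5:**
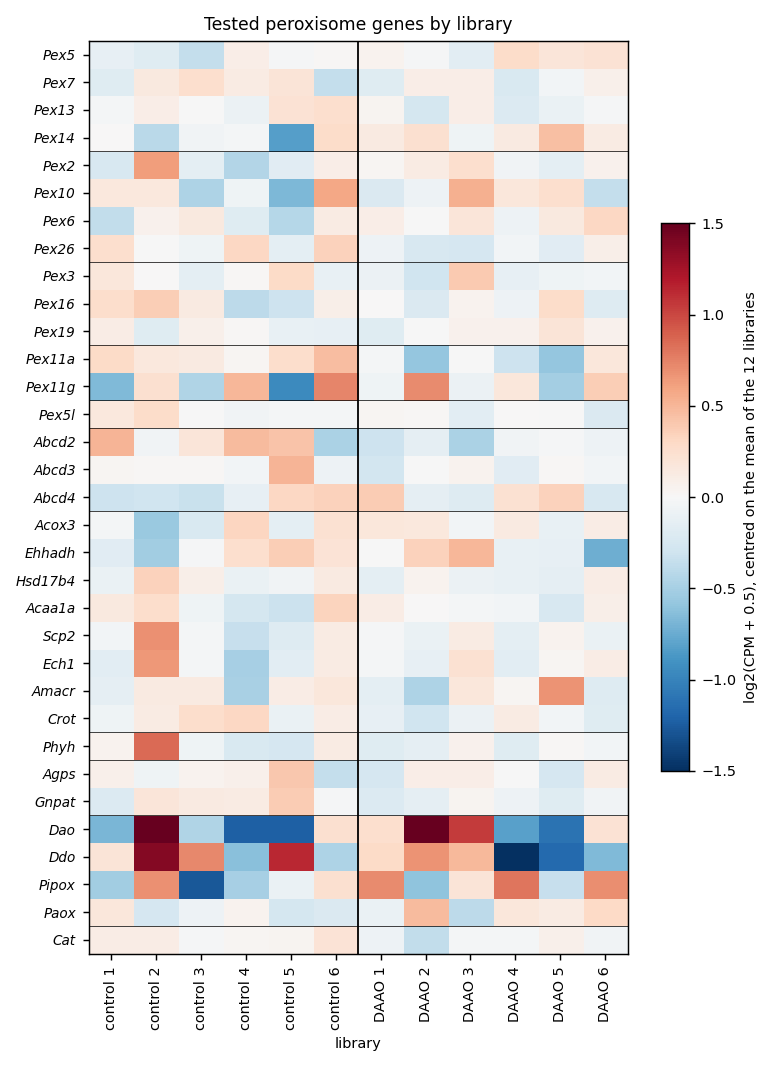
Level of 33 tested members in each library, as log2(CPM + 0.5) centred on the mean of the 12 libraries, with rows grouped by role and colours ending at 1.5 in either direction. Control 2 stands out for Phyh, Ech1, Scp2, Dao and Ddo, and no row separates the 6 DAAO columns from the 6 control columns.

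No gene of the wider pathway passed. Of 65 tested genes on 5 further lists, 0 were higher and 0 lower by edgeR's quasi-likelihood test, and 7, or 10.8%, had an unadjusted p under 0.05, against 10.3% of all genes. The log2 fold change was negative in 44 of the 65, or 67.7%, against 49.6% of all genes. This count of signs was given no test and was not repeated in the alternative fits, so no shift of the pathway can be read from it. Small values depended on the processing among the members. Their median of -0.058 was -0.0083 with library totals alone and 0.0094 without control 2. Among 13 genes of division, tethering and membrane channels the median was -0.16, led by the tether Acbd5 (-0.33, adjusted p = 0.275) and the carrier Slc25a17 (-0.35, adjusted p = 0.372). The 21 further matrix enzymes had a median of -0.064, led by Idh1, a source of NADPH (-0.27, adjusted p = 0.412), and the hydrolase Nudt12 (-0.40, adjusted p = 0.439).
Of 5 genes of plasmalogen synthesis Far1 and Far2, the reductases that supply fatty alcohol, had -0.17 and -0.25 (adjusted p = 0.706 and 0.712), and the median was -0.16. The 8 PPAR receptors, partners and coactivators had a median of 0.019, with the coactivator Ppargc1a at -0.66 (adjusted p = 0.156) and the receptor Rxrb at 0.35 (adjusted p = 0.324). Ppara itself, the receptor best known for driving peroxisome genes in liver, had 1.56 ± 0.748 and 1.05 ± 0.641 CPM in controls and DAAO (adjusted p = 0.872). The 18 genes of mitochondrial beta-oxidation had a median of -0.038, with Hadhb at -0.28 (adjusted p = 0.355) and Slc25a20 at -0.31 (adjusted p = 0.536).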

How the data were processed

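Total RNA of dorsal root ganglia was sequenced as paired reads, per the labels' protocols. The deposited table holds whole-number read counts per gene, not normalised, for 12 libraries. Per the submitters' processing notes the tools were DESeq2 1.20.0, HISAT2 2.0.5 and FastQC, on GRCm38 (mm10). No source used here gives the counting program or its strand setting, so the 17 members that share exon bases with another gene have uncertain counts to that extent. Gene lengths are those of the deposited file and equal GENCODE vM21 for all 42 members.

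Genes were kept with filterByExpr by group (minimum count 10, minimum total 15), scaled by TMM and tested with edgeR 4.0.16 in R 4.3.3 (robust quasi-likelihood, two-sided, Benjamini-Hochberg over 17002 genes, threshold 0.05). SEs were taken from the log2 fold change and the F statistic (its size over the root of F), and 95% intervals use the moderated degrees of freedom. limma 3.58.1 and DESeq2 1.42.0 were alternatives. On simulated counts, with genes drawn from all those tested, the test called 6 of 67 genes changed by 1.5-fold. It called 42 of 67 changed by 2-fold and 53 of 66 changed by 4-fold, and 5.61% of its 107 calls were false. Most 1.5-fold changes were missed there, so a gene that did not pass cannot be called unchanged on that ground alone. The members and lists were chosen with earlier results of these data known. Members described in full were the 4 smallest p in each direction and Dao, Cat, Pex5 and Pex5l; Phyh and Ddo were added after their values were seen. Of each further list the 2 smallest p are named, and Ppara was added for its role. Protein sequences were not used here. Single results of some members are not reported here.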

Additional observations from a re-analysis of the deposited data

Results flagged for a closer look

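In 6 of 66 checks (33 members in each group of 6 libraries) 1 library lay far from the other 5, and chance flags about 1 in 20. Control 2 was far above the other controls for 3 members, with 208 CPM of Scp2 (next 140), 127 CPM of Phyh (next 76.2) and 5.07 CPM of Dao (next 0.881). Control 5 had 110.0 CPM of Abcd3 (next 78.6). DAAO 2 was low for Cat, with 131 CPM (next 161) and DAAO 3 high for Pex3, with 31.7 CPM (next 23.3).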

How the results depend on the processing

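No member passed as higher in any of the fits run, and 1, Abcd2, passed as lower only without controls 2 and 6 (-0.59, adjusted p = 0.0303; from 0.116 to 0.683 in its other alternatives). The median over members was 0.024 in that fit, and controls 2 and 6 were the 2 lowest controls for Abcd2. All genes called, 128 in the main comparison, numbered 362 with DESeq2, 307 with limma-voom with sample weights and 648 without controls 2 and 6. With a term for the pan-neuronal level, the mean of the markers' centred log2 CPM, they numbered 66. At an adjusted p under 0.1 there were 226. With 1 library left out the count ran from 61 (without DAAO 6) to 322 (without control 2). It moved by over 1.5 times also without control 1 (80) or 5 (77) and DAAO 1 (78), 2 (65) or 3 (73). With the replicate number as a block 187 genes were called and 0 members. The deviations of same-numbered libraries had correlations from -0.08 to 0.21, and 3 of 6 controls correlated best with their own number. These values do not settle whether the numbers pair the libraries, and the main fit took them as unpaired.

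The sign of the log2 fold change stayed the same in all 25 alternatives for 21 of 33 members. It turned in 49 of 825 values, none of them called. With library totals alone it turned for Acaa1a (0.0051), Ech1 (0.036) and Ehhadh (0.030), with limma-voom for Ech1 (0.026), with sample weights for Acaa1a (0.027), Ech1 (0.12) and Pex19 (-0.0010), and with the replicate block for Ech1 (0.027). Without controls 2 and 6 it turned for Acaa1a (0.11), Ech1 (0.23), Pex16 (0.037), Phyh (0.045) and Scp2 (0.12). With the pan-neuronal term it turned for Dao (-1.68) and Pex2 (-0.13), and with the oligodendrocyte term for Ehhadh (0.049). Over all alternatives the value of Dao ran from -1.68 to 2.91. The highest was that without controls 2 and 6 (edgeR, unadjusted p = 0.0323, adjusted p = 0.215). Without controls 2 and 4, chosen after seeing the data, Amacr (-0.011), Ech1 (0.080) and Scp2 (0.014) turned. With 1 library left out the values ran from -0.13 to 0.014 for Acaa1a, -0.11 to 0.14 for Amacr, -0.49 to 1.98 for Dao, -0.099 to 0.15 for Ech1, -0.15 to 0.11 for Ehhadh, -0.050 to 0.23 for Pex10, -0.040 to 0.41 for Pex11g, -0.15 to 0.0099 for Pex16, -0.022 to 0.23 for Pex2 and -0.17 to 0.069 for Scp2. Without a change of sign, values moved by over 1.5 times for Pex6 (down to 0.13), Cat (to -0.10), Pex5l (to -0.057) and Paox (to 0.14), among other members. The cause was not tested. Dao had 116 counts in controls and 120 in DAAO, and at that depth its 95% interval spanned -2.38 to 2.43.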
